A study of Mus musculus with 9 samples.

Results

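The proneural basic helix-loop-helix (bHLH) genes Neurod1, Neurod2, Neurod4, Neurog1, Neurog2, Neurog3, Atoh1 and Olig2 were followed in mouse embryonic stem cells (mESCs) that lack the Polycomb protein RING1B or carry a catalytically dead form of it. These 8 genes were taken by name from the 21709 genes on the array, and they had 9 of the 30170 probes tested. Neurod1 had 2 probes and each of the other genes had 1, and the probe with the highest mean signal was used for each gene. The genes were selected with their signals in all 3 groups already known, because Neurod1 and Neurog1 differ between the mutants, so their values, and whether they pass the thresholds set for all probes, are given as a description from which nothing is inferred.

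Proneural factors are transcription factors that commit ectodermal and endodermal progenitors to neuronal, sensory or endocrine fates. They bind DNA at the E-box, CANNTG, as dimers with E proteins, and ID proteins block them by taking up those partners. Notch signalling holds proneural genes down through the HES and HEY repressors, while proneural factors raise Notch ligands in the same cell. In mESCs many developmental genes of this kind lie in CpG islands bound by Polycomb repressive complexes. RING1B, encoded by Rnf2, is a core subunit of Polycomb repressive complex 1 (PRC1) and the E3 ligase that attaches ubiquitin to histone H2A.

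Polyadenylated RNA of 9 samples was measured, 3 per group, with 1 single-colour Agilent array each. The KO group was E14Tg2a-derived Ring1B -/- mESCs, in which an exon of Rnf2 was deleted on both alleles. The I53A group was E14Tg2a-derived Ring1B I53A/I53A mESCs, in which both alleles encode a RING1B that assembles into PRC1 but cannot act as an E3 ligase. The WT group was the parental E14Tg2a line, male cells of strain 129P2/OlaHsd. All were cultured with serum and LIF, and no group was treated. No independently derived lines of either mutant genotype are described for the arrays, so a line and its mutation cannot be told apart. The samples are called biological replicates, but separate cultures are not described, so p-values here reflect only how these samples vary, and that variation may be technical.

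Signals are normalised log2 fluorescence, and a gene is called where limma's adjusted p was under 0.05 and the difference was over 2-fold. A probe counts as measured where the scanner software flagged it as well above background, which held for 45.4% to 57.4% of the tested probes per array. Rnf2 gave 7.35, 7.92 and 8.08 in KO, 8.69, 9.10 and 8.59 in I53A, and 8.32, 8.27 and 8.47 in WT. KO lay below WT on all 3 arrays, by -0.57 ± 0.26 (SE, limma adjusted p = 0.288), and whether the Rnf2 probe lies in the deleted exon is not known here, so its signal does not check the labels. All 7 embryonic stem cell markers measured were well above background on every array that kept their spots, and of these Sox2, a pluripotency and neural transcription factor, fell in KO by 1.03 on the log2 scale (limma adjusted p = 0.0425, and 0.061 to 0.151 without any 1 of the WT or KO arrays or I53A 1, each of which ended the call). The median of the 7 markers was 0.11 in KO relative to WT, with 3 higher and 2 lower at p under 0.05 without adjustment. In I53A relative to WT the median was -0.01, with 0 higher and 2 lower, and none was called. The lowest marker there, which was not Sox2, was at -1.41. Sox2 on the I53A arrays stood at -0.74, -1.07 and -0.38 relative to its WT mean. All 7 markers were kept on 3 arrays of KO and 2 each of I53A and WT. On these arrays their summed linear signal ran from 42117 to 44563 in KO, 35620 to 38585 in I53A and 31609 to 40103 in WT.

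Among the 8 proneural genes, Neurod1, Neurog3 and Neurog1 gave signal above background on at least 1 array. Neurod1 was highest in I53A and lowest in KO. Neurog3 was higher in KO than in I53A and WT. Neurog1, whose KO arrays likewise lay above every I53A and WT array, was detected on 1 KO array and on no other array. Neurod2, Neurod4, Neurog2, Atoh1 and Olig2 were not well above background on any of the 9 arrays.

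The upstream sequences of the 3 genes with signal are shown because each lies in the kind of CpG-rich DNA that PRC1 occupies and because E-boxes are the sites that these factors themselves bind. Each is the 250 bases before the annotated start in the RefSeq annotation of GRCm38.p6, read 5′ to 3′ on the gene's own strand, with E-boxes (CANNTG, a motif that reads alike on both strands) in capitals.

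Neurod1, chr2:79456637-79456886, minus strand: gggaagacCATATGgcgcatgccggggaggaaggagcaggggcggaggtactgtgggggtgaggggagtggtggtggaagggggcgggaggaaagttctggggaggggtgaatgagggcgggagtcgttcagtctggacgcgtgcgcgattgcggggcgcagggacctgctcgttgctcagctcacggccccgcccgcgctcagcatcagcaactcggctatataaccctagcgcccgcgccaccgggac

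Neurog1, chr13:56252181-56252430, minus strand: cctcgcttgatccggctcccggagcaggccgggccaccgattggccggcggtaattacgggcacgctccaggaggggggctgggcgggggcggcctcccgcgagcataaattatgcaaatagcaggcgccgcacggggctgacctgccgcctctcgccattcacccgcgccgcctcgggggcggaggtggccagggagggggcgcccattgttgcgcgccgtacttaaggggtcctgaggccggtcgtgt

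Neurog3, chr10:62132840-62133089, plus strand: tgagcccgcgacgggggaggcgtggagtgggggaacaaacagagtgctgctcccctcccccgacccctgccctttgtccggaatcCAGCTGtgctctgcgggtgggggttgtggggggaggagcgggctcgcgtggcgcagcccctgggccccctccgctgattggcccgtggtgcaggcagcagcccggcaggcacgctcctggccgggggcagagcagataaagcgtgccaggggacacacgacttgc

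The Neurod1 sequence held 22 CpG dinucleotides and 67.6% G and C, Neurog1 held 29 and 71.2%, and Neurog3 held 18 and 71.2%. The median over all 32841 upstream sequences of that length was 6 CpG dinucleotides and 52.4% G and C. Upstream of the genes without signal there were from 2 (Neurod4) to 22 (Olig2), so CpG-rich sequence was not particular to the genes shown. One E-box, CATATG, was found upstream of Neurod1 and 1, CAGCTG, upstream of Neurog3, and the window of Neurog1 held none of these letters. An E-box stood in 66.2% of all upstream sequences. All 8 genes had an upstream sequence in the table, Neurod4 a pair of them, and 3 of these 9 sequences held an E-box. The arrays measured RNA only, and no binding or methylation was measured at these sequences.

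Neurod1 (chr2:79452637-79456636, GRCm38.p6) encodes a factor that drives neuronal and pancreatic endocrine differentiation. Its signal was 7.17, 7.28 and 6.92 in KO, 9.33, 9.27 and 9.37 in I53A, and 8.01, 7.91 and 7.69 in WT, all well above background. The 3 groups did not overlap, and I53A stood highest and KO lowest. The group means were 7.12 ± 0.18 in KO, 9.32 ± 0.05 in I53A and 7.87 ± 0.17 in WT (SD, n = 3 each).

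The fitted difference for Neurod1 was -0.75 ± 0.21 between KO and WT, 1.45 ± 0.21 between I53A and WT, and -2.20 ± 0.21 between KO and I53A (log2, SE). On the linear scale I53A was 2.73-fold above WT and KO was 4.59-fold below I53A. All 3 I53A arrays lay above every WT array. All 3 KO arrays lay below every WT array, but the KO against WT difference was under 2-fold and passed neither threshold. Over the slide 1 arrays alone the same differences were -0.86, 1.34 and -2.20, and on slide 2, with 1 array per group, they were -0.52, 1.68 and -2.20. In I53A against WT, Neurod1 no longer passed both thresholds without any 1 of the WT or I53A arrays (differences of 1.36 to 1.52 over all 9 omissions), nor with the sample number as a block.

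The other Neurod1 probe did not measure the gene. It was not well above background on any array, with signals from 2.93 to 4.43 and group means of 3.24 in KO, 3.70 in I53A and 3.26 in WT. The pattern of Neurod1 therefore rests on 1 probe and could not be checked with the other.

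Neurog1 (chr13:56250478-56252180, GRCm38.p6) encodes neurogenin 1, a determination factor of cranial sensory neurons. Its signal was 4.51, 4.53 and 5.70 in KO, 4.18, 3.38 and 3.74 in I53A, and 3.74, 3.06 and 2.66 in WT. Only KO 3 was well above background. The KO arrays lay above every I53A and WT array, and the I53A and WT arrays overlapped.

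The mean Neurog1 signal was 4.92 ± 0.68 in KO, 3.77 ± 0.40 in I53A and 3.15 ± 0.54 in WT (SD, n = 3 each). The fitted difference was 1.76 ± 0.39 between KO and WT, 0.61 ± 0.39 between I53A and WT, and 1.15 ± 0.39 between KO and I53A (log2, SE). Since the probe was not well above background on 8 of the 9 arrays, these differences carry no fold. The KO against WT difference for Neurog1 was 1.72 over slide 1 and 1.85 on slide 2, but 0.22 after the normexp background correction, which compresses dim signals. Neurog1 no longer passed both thresholds without WT 2, WT 3, I53A 3 or any 1 of the KO arrays, with differences of 1.37 to 2.05 over all 9 omissions.

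Neurog3 (chr10:62133090-62134763, GRCm38.p6) encodes neurogenin 3, the factor that commits pancreatic progenitors to endocrine cells. Its signal was 8.92, 9.01 and 8.51 in KO, 7.79, 7.97 and 7.70 in I53A, and 7.57, 7.83 and 7.76 in WT, all well above background. KO lay above every array of the other groups, and I53A and WT overlapped. The means were 8.82 ± 0.27 in KO, 7.82 ± 0.14 in I53A and 7.72 ± 0.13 in WT (SD, n = 3 each).

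For Neurog3 the fitted difference was 1.10 ± 0.22 between KO and WT, a 2.14-fold higher signal in KO. It was 0.11 ± 0.22 between I53A and WT, with a 95% interval of -0.39 to 0.60, and 0.99 ± 0.22 between KO and I53A (log2, SE). KO and WT differed by 1.06 over slide 1 and 1.17 on slide 2. The Neurog3 difference between KO and WT no longer passed both thresholds without KO 1, KO 2 or any 1 of the WT arrays, with differences of 1.00 to 1.25 over all 9 omissions. After normexp it was 0.82 and passed neither threshold (limma adjusted p = 0.443).

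Neurog3 and Neurod1 act one after the other in the pancreatic endocrine lineage. None of 5 pancreatic endocrine markers was called by limma in any of the 3 comparisons, and none had an unadjusted p under 0.05. Per array, only 2 to 3 of the 5 were well above background in KO and I53A, and 2 in WT. A small change in the others was not detectable. The summed linear signal of the 5 markers ran from 273 to 291 in KO, 242 to 286 in I53A and 246 to 294 in WT.

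**Figure D1:**
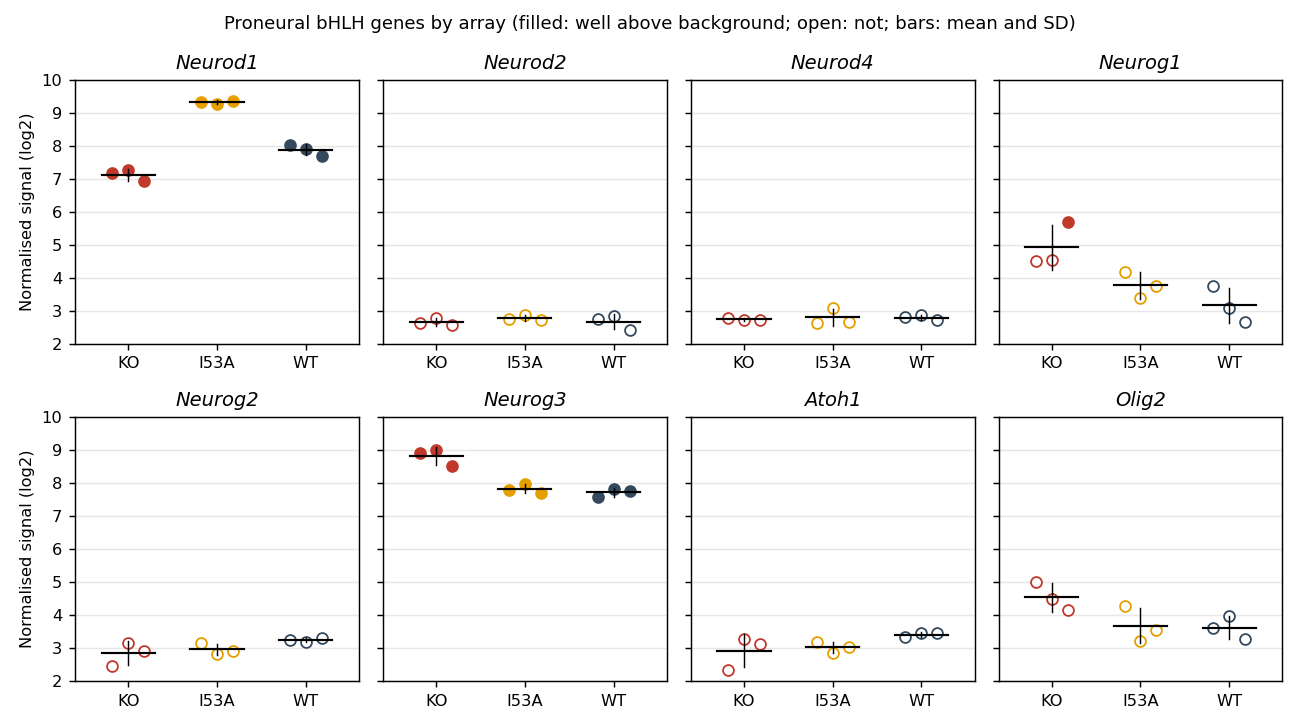
Normalised log2 signal (vertical axis) of the brightest probe of each proneural gene on each array, with groups KO, I53A and WT from left to right in each panel and arrays 1 to 3 of a group side by side. Filled points were well above background and open points were not, and bars give the mean and SD. Neurod1 is highest in I53A (9.32) and lowest in KO (7.12), Neurog3 is highest in KO (8.82), and only 1 Neurog1 point, at 5.70 in KO, is filled.

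The other 5 proneural genes were not measured above background in any cell line. Olig2 (chr16:91225550-91228677), needed for oligodendrocytes and motor neurons, gave 5.00, 4.48 and 4.14 in KO, 4.27, 3.21 and 3.55 in I53A, and 3.60, 3.98 and 3.27 in WT. Its KO arrays lay above every WT array and overlapped the I53A arrays, but all these signals were in the range of background and no fold is given. Atoh1 (chr6:64729125-64731245), which specifies hair cells and cerebellar granule neurons, ranged from 2.34 to 3.45 over the 9 arrays. Neurog2 (chr3:127632733-127635636), a cortical and spinal neurogenin, ranged from 2.46 to 3.31.

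Neurod2 (chr11:98325415-98329645) and Neurod4 (chr10:130268152-130280254) act later, in neurons that have begun to differentiate. Neurod2 ranged from 2.41 to 2.87 and Neurod4 from 2.64 to 3.08, with overlapping groups. Signals near background have only an upper bound, so a small change in any of these 5 genes was not detectable. Neurod2 lies on chromosome 11, whose 1709 genes had a median log2 difference of 0.22 between KO and WT and -0.01 between I53A and WT. In bulk RNA, fewer cells expressing a gene and less RNA per cell cannot be told apart.

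Of the 8 genes, 2 were called higher and none lower in KO against WT (limma), where 2.73% of all probes were called higher and 1.11% lower. One was called higher and none lower in I53A against WT (0.235% and 0.0928% of all probes). None was called higher and 1 lower in KO against I53A (0.958% and 0.368%). Where the p-value was left unadjusted and 0.05 was kept, 3 genes lay higher and 1 lower in KO than in WT, 1 higher and 0 lower in I53A than in WT, and 3 higher and 1 lower in KO than in I53A. Of all 21709 genes, 2173 lay higher and 1801 lower in KO than in WT by the same rule. The counts were 1266 and 856 in I53A against WT, and 1374 and 1169 in KO against I53A. The genes were picked from these same comparisons, so nothing is read from the shares. Without overlap, 3 genes lay above and 3 below WT in KO (11.6% and 12.5% of all probes) and 1 above and 2 below in I53A (8.07% and 9.34%), and of these Neurog2 and Atoh1, below WT in both mutants, and Olig2, above WT in KO, were not well above background on any array. KO lay without overlap above I53A for 2 genes (7.57% of all probes) and below it for 1 (7.43%). The median log2 difference over the 8 genes was -0.03 between KO and WT, 0.08 between I53A and WT, and -0.08 between KO and I53A, beside -0.02, -0.01 and -0.02 over all genes.

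**Figure D2:**
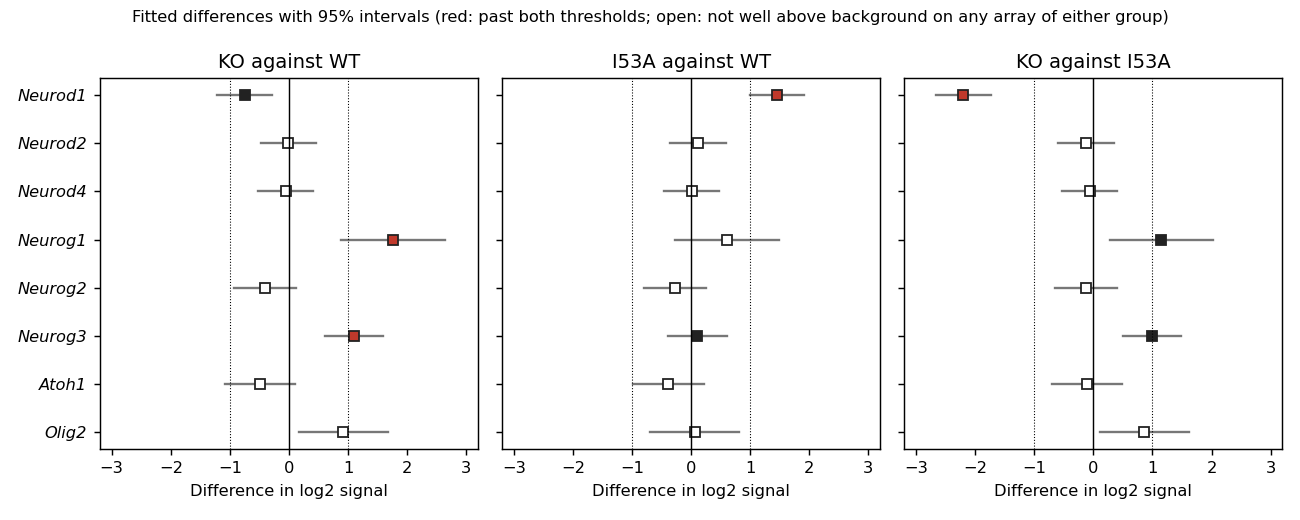
Fitted differences in log2 signal (horizontal axis) with 95% intervals for the 8 genes, with a panel each for KO set against WT, I53A set against WT, and KO set against I53A. Red squares passed both thresholds, black squares did not, and open squares were not well above background in either group. Neurod1 sits at -0.75, 1.45 and -2.20 in the 3 panels, and Neurog1 at 1.76, 0.61 and 1.15.

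The genes whose signals followed Neurod1 most closely over the 9 arrays were found by the root mean square difference after each gene's WT mean was subtracted. This likeness is a description over 9 arrays, in which the pattern is mostly that of the 3 groups. Of 12458 genes ranked, Hes6 was nearest to Neurod1, with a root mean square difference of 0.255 log2 units. Hes6 is a HES family member that counters HES1 and favours neuronal differentiation. Next came Perp, a desmosomal p53 target (0.408), A930024E05Rik (0.417), Enpp2, which encodes the lysophospholipase autotaxin (0.436), and Dusp6, a phosphatase that turns off ERK (0.441).

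All 5 shared the higher signal in I53A, but their KO signals differed. Perp was at -1.34 in KO and 1.17 in I53A relative to WT, while Enpp2 was at -0.10 in KO and 1.36 in I53A.

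**Figure D3:**
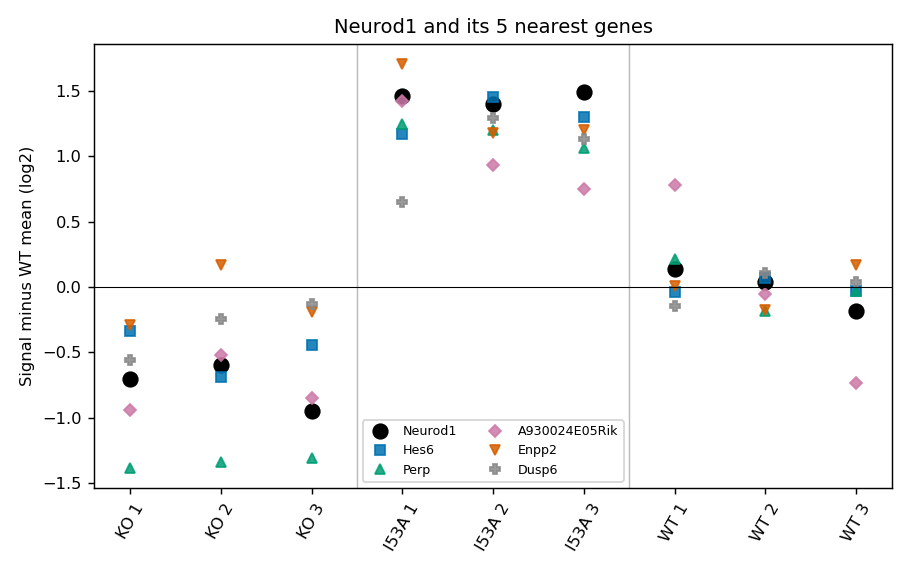
Log2 signal minus the gene's WT mean (vertical axis) on each of the 9 arrays for Neurod1 with its 5 nearest genes. These genes sit above 0 on the I53A arrays and mostly below 0 on the KO arrays, and Perp is the lowest in KO at a mean of -1.34.

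The partners and inhibitors of the proneural factors were all expressed, and 1 of 7 was called. Id2, an inhibitor without a DNA-binding region, gave 7.21, 7.38 and 6.97 in KO, 8.91, 8.77 and 8.74 in I53A, and 8.74, 8.41 and 8.78 in WT. It was lower on every KO array than on any other array. Id2 fell in KO by 1.46 ± 0.22 relative to WT (log2, SE, limma adjusted p = 0.00438) and by 1.62 ± 0.22 relative to I53A (adjusted p = 0.00606). In I53A it differed from WT by 0.16 ± 0.22 (adjusted p = 0.873).

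The other 6 were the E protein genes Tcf3, Tcf4 and Tcf12, which encode the dimer partners, and the inhibitors Id1, Id3 and Id4. Id3 differed from WT by 0.96 in KO and 1.15 in I53A without passing the test. At an unadjusted p under 0.05, no partner or inhibitor was lower in I53A than in WT and 2 were higher. The medians of the 7 genes were -0.20 in KO and 0.02 in I53A relative to WT, and -0.26 in KO relative to I53A.

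Of 22 Notch pathway genes with a probe, 1 was called in KO against WT, 2 in I53A against WT and 1 in KO against I53A. Per array, 14 to 16 of the 22 were well above background in KO and in I53A, and 11 to 14 in WT. Hes6, which ranked nearest to Neurod1, gave 9.74, 9.39 and 9.64 in KO, 11.25, 11.53 and 11.38 in I53A, and 10.04, 10.15 and 10.05 in WT. Its 3 groups did not overlap and stood in the same order as those of Neurod1. Hes6 rose in I53A by 1.31 ± 0.21 relative to WT (limma adjusted p = 0.035) and was lower in KO than in I53A, by -1.79 ± 0.21 (adjusted p = 0.00271). Between KO and WT it differed by -0.49 ± 0.21 (adjusted p = 0.252).

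Dll3, a Notch ligand that acts within the cell that makes it, gave 8.40, 8.30 and 8.22 in KO, 7.78, 8.58 and 8.32 in I53A, and 6.12, 6.74 and 5.88 in WT. Both mutants lay above WT and overlapped each other. Dll3 rose 4.16-fold in KO (2.06 ± 0.29, limma adjusted p = 0.0032) and 3.94-fold in I53A (1.98 ± 0.29, adjusted p = 0.0227). KO and I53A differed by 0.08 ± 0.29 (adjusted p = 0.963).

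The other Notch ligands, receptors and repressors did not pass the test. Hes1, a main effector repressor of Notch, was near background, at 2.63 in KO, 2.69 in I53A and 3.21 in WT. Hes5, another effector, differed from WT by -0.72 in KO and -0.94 in I53A. Notch2 was at 1.25 in KO and 0.95 in I53A relative to WT. The list's medians were -0.11 in KO and -0.08 in I53A relative to WT.

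Among 30 genes with a probe that act downstream of proneural factors in the nervous system, 4 were called higher in KO than in WT and 2 in I53A. Per array, 16 to 19 of the 30 were well above background in KO, 17 to 19 in I53A and 14 to 16 in WT. Gadd45g, a growth arrest gene, gave 10.27, 10.08 and 10.23 in KO, 9.78, 10.82 and 10.88 in I53A, and 8.05, 8.87 and 7.75 in WT. It rose 3.92-fold in KO (1.97 ± 0.36, limma adjusted p = 0.0141) and 4.82-fold in I53A (2.27 ± 0.36, adjusted p = 0.0362). Cdkn1c, the inhibitor of cyclin-dependent kinases known as p57, rose 2.44-fold in KO (adjusted p = 0.0217) and 3.57-fold in I53A (adjusted p = 0.0204).

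Rnd2, a small GTPase of migrating neurons, rose 2.59-fold in KO (limma adjusted p = 0.0149), and it lies on chromosome 11. Eomes, a T-box factor of neuronal progenitors and also of mesendoderm and trophoblast, rose 2.21-fold in KO (adjusted p = 0.0458). In I53A, Rnd2 and Eomes were at 0.93 and 0.92 relative to WT without passing the test. Insm1, a zinc finger factor of neuronal and endocrine progenitors, was at -0.42 in KO and 0.15 in I53A. The neuronal RNA-binding protein gene Elavl3 was at -0.43 in KO and -0.19 in I53A. No gene of the list was called in KO against I53A by limma, where 1 was higher without adjustment (p under 0.05). Relative to WT the median of the list was 0.03 in KO and 0.01 in I53A.

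Of 37 other tissue-restricted bHLH genes with a probe, 3 were called higher in KO than in WT and 1 in I53A. Per array, 16 to 18 of the 37 were well above background in KO, 17 to 20 in I53A and 17 in WT. Sohlh2, a factor of germ cells, gave 8.80, 9.09 and 9.40 in KO, 7.32, 7.80 and 8.11 in I53A, and 6.05, 6.58 and 6.26 in WT. Its groups did not overlap, with I53A between KO and WT. Sohlh2 rose 6.94-fold in KO (limma adjusted p = 0.000451), was at 1.45 in I53A relative to WT (adjusted p = 0.0744), and was 2.55-fold higher in KO than in I53A (adjusted p = 0.0469).

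Ascl2, a trophoblast factor, rose 3.93-fold in KO (limma adjusted p = 0.0142) and Mesp2, a factor of somite formation, rose 3.50-fold (adjusted p = 0.0214). Tal1, the haematopoietic factor, rose 3.72-fold in I53A (adjusted p = 0.0165) and was at 0.82 in KO. None of these 4 factors is mainly neurogenic. The medians of the 37 genes were 0.01 in KO and 0.17 in I53A relative to WT.

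Beside the counts of these 4 lists, 2.93% of all genes were called higher and 1.17% lower in KO against WT. The shares were 0.290% and 0.111% in I53A against WT, and 1.06% and 0.405% in KO against I53A. Within these 4 lists the calls in KO for Dll3, Id2 and Sohlh2 against WT, and for Hes6 and Id2 against I53A, passed without each array in turn. Every call in I53A against WT (Dll3, Hes6, Gadd45g, Cdkn1c, Tal1) was lost without WT 1, WT 3, I53A 2 or I53A 3, at adjusted p from 0.055 to 0.156 over the single arrays that ended a call, and all were lost with the sample number as a block in WT and I53A arrays, at adjusted p from 0.217 to 0.235. Gadd45g in I53A was also lost without any 1 of the KO arrays, Hes6 without WT 2, I53A 1, KO 2 or KO 3, Cdkn1c without WT 2 or I53A 1, and Tal1 without WT 2. In KO, Gadd45g, Rnd2, Ascl2 and Mesp2 were lost without WT 1 or WT 3 (adjusted p from 0.0506 to 0.0852 over all their losses), Gadd45g and Mesp2 also without KO 3, Mesp2 without KO 1, and Cdkn1c without WT 2, WT 3, KO 1 or KO 2 (0.0594 to 0.0898). Eomes in KO and Sohlh2 in KO against I53A were lost without any 1 of the 9 arrays, at adjusted p of up to 0.162 and 0.165.

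**Figure D4:**
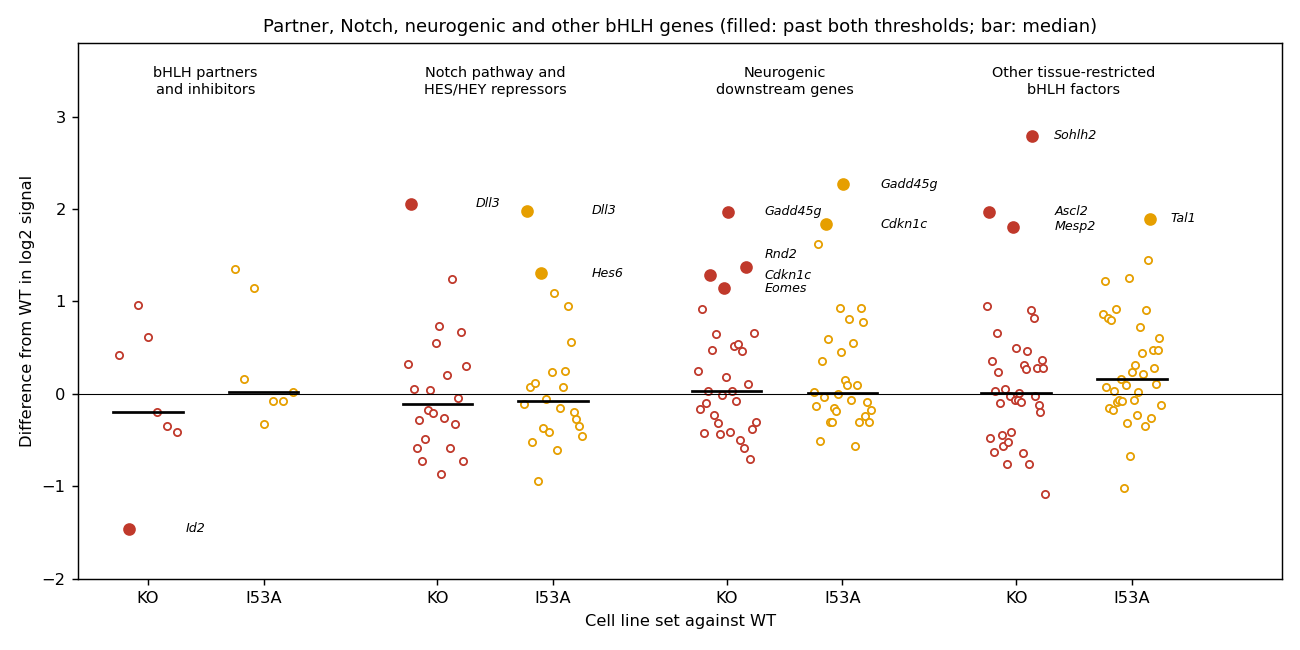
Difference from WT in log2 signal (vertical axis) of each gene of the 4 lists with a probe, bright or dim, for KO in red and I53A in orange. Filled points passed both thresholds and are named, and bars give the list medians. Most genes lie within 1 log2 unit of 0, and Sohlh2 in KO is the highest at 2.80.

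Markers of the cell types in which proneural genes act, and of other types that mESC cultures can hold, were measured beside these values. None of 10 neuron markers was called by limma in any comparison. At an unadjusted p under 0.05, 5 were lower and 0 higher in KO than in WT, and 1 was higher and 1 lower in I53A. Between 8 and 9 of the 10 were well above background on the KO arrays, 10 on each I53A array and 9 to 10 on the WT arrays. Their summed linear signal ran from 1103 to 1353 in KO, 1252 to 1486 in I53A and 1574 to 1706 in WT.

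Of 8 neural progenitor markers, Nes, an intermediate filament gene, differed from WT by 2.77 in KO (log2, limma adjusted p = 0.00151). In I53A it differed from WT by 2.82 (adjusted p = 0.00884). WT was not well above background on any array, so these differences carry no fold. After normexp the Nes difference was 0.86 in each mutant and neither call remained, and on slide 1 alone Nes was not called in KO (adjusted p = 0.0636) or in I53A (0.317). The Nes call in I53A was lost without WT 1, WT 3, I53A 2 or I53A 3 (adjusted p from 0.0516 to 0.0581) and with the sample number as a block (0.145). Zic1, a neural crest and cerebellar factor, rose 2.87-fold in KO (adjusted p = 0.0256), lost without any 1 of the KO or WT arrays (0.0533 to 0.104). Sox1 and Pax6, which define neural progenitors, were at 0.13 and -0.44 in KO and at 0.15 and -0.26 in I53A. The summed signal of the 8 markers ran from 947 to 1246 in KO, 1336 to 1629 in I53A and 1054 to 1238 in WT.

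Some primitive endoderm markers had a higher group mean in KO than in WT, as Neurog3 and Neurog1 had. Within KO, Gata6 was highest on KO 3 (7.07, beside 7.01 on KO 2), where Neurog1 was highest (5.70) and Neurog3 lowest (8.51). Gata4 (4.88) and Sox17 (5.41) were instead highest on KO 2, where Neurog3 was highest (9.01). Of 5 markers, Gata4, Gata6 and Sox17 were called higher in KO than in WT, at adjusted p of 0.00651, 0.00651 and 0.00899 (limma). Gata6 gave 6.55, 7.01 and 7.07 in KO, 4.76, 5.46 and 4.86 in I53A, and 4.34, 4.54 and 5.47 in WT, and was well above background on 3 KO arrays but on 1 array of I53A and 1 of WT. Gata4 was well above background on 2 KO arrays and Sox17 on 1, and neither was on any I53A or WT array. After normexp Gata4 and Sox17 differed by 0.51 and 0.54 between KO and WT and neither was called. Gata6 was also called higher in KO than in I53A, by 1.85 ± 0.33 (adjusted p = 0.0273), a call lost without KO 2, KO 3, I53A 1 or I53A 3 (0.0854 to 0.11), with the sample number as a block (0.0507) and on slide 1 alone (0.0916). The summed signal of the 5 markers ran from 160 to 239 in KO, 75 to 81 in I53A and 50 to 90 in WT. Dab2 was near background in all groups, at 2.65 in KO, 2.69 in I53A and 3.13 in WT. The part of primitive endoderm-like cells in the Neurog3 and Neurog1 values was not tested.

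Glial, mesoderm and trophoblast markers gave no call by limma in any comparison. Well above background per array were 2 of 5 glial markers in KO, 1 to 3 in I53A and 1 to 2 in WT. Of 4 mesoderm markers, 0 to 2 were in KO and 0 in I53A and WT. A small change in the markers near background was not detectable. At an unadjusted p under 0.05 none of 5 glial markers passed in any comparison, 1 of 4 mesoderm markers was higher in KO than in WT, and 2 of 4 trophoblast markers were lower in KO than in WT. Their summed signals were 111 to 179 in KO, 138 to 151 in I53A and 98 to 163 in WT for glia. For mesoderm they were 49 to 73 in KO, 30 to 54 in I53A and 45 to 57 in WT. For trophoblast they were 1370 to 2357 in KO, 3871 to 4878 in I53A and 2689 to 3149 in WT.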

How the data were processed

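Cy3-labelled RNA of 9 mESC samples was hybridised by the authors, whose scans were read out in Agilent Feature Extraction (version 11.5.1.1, per the file headers). The deposited scan files hold processed intensity per spot, background-subtracted and on a linear scale, with flags for outlier, saturated and dim spots. The deposited series table holds log2 values for 30170 probes after the authors averaged repeated probes and applied quantile normalisation, together with their own fold changes and p-values, which were not used. Each array had 62976 spots, 3671 of them controls, with 0.4% to 0.548% of spots outlier-flagged and 5 to 9 saturated. The number of arrays and the share of probes above background limit the precision.

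Processed intensities were log2 transformed without control and outlier-flagged spots, spots of the 432 repeated probes were averaged, and quantile normalisation was run over 55681 non-control probes in R 4.3.3 with limma 3.58.1. The deposited log2 columns correlated with the recomputed arrays at 0.9999 or more. The 30170 probes were fitted with lmFit and eBayes over all 9 arrays, with a mean for each group (two-sided, 6 residual df), with Benjamini-Hochberg adjustment over all probes, and called at adjusted p under 0.05 and over 2-fold. The fit was tested on simulated data. The brightest of a gene's probes was used. Symbols came from the probes' accessions or symbols (24559 probes) or Ensembl genes (2389), through RefSeq, and 3222 probes had none. Gene positions and upstream sequences are RefSeq's on GRCm38.p6.

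Samples were grouped by their titles. The source names of the KO samples all say replicate 1, so replicate numbers come from the titles. Slide 2 held KO 1, I53A 3 and WT 3, and slide 1 the other 6 arrays. The 3 groups sat in different columns of a slide, which cannot be told apart from the genotype. Deviations from the group means of samples with the same number correlated at 0.378, 0.109 and 0.235 between I53A and WT, at -0.200, -0.008 and -0.109 between KO and WT, and at -0.216, -0.390 and 0.107 between KO and I53A (12036 probes, numbers 1 to 3). By the sign of these correlations alone, the numbers were taken to pair I53A with WT samples and not KO with either, no label naming a shared batch. I53A and WT samples of the same number always shared a slide, but KO 1 and KO 3 lay on the other slide from theirs. Number is therefore partly confounded with slide. Arrays of different groups correlated at a mean of 0.072 on the same slide and -0.090 on different slides. The array of another group most correlated with WT 1 was I53A 1, and with I53A 3 it was WT 3. For WT 2, WT 3, I53A 1 and I53A 2 it was a KO array of another number, so a pairing is not established.

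The 8 genes, the lists of partners, Notch, neurogenic and other bHLH genes and the marker lists were chosen with earlier results of these data known. Named were all 8 genes, up to 6 called genes of each list with the largest changes, and the 5 genes nearest to Neurod1 among those well above background on all arrays of a group. The same ranking was set for Neurog1 and is not given, because its probe was near background on 8 arrays. Others named, without a call, were chosen after their values were seen. The alternatives were normexp, 75th percentile scaling, normalisation over the tested probes, the deposited log2 values, dim probes left out, slide or number as a block, slide 1 alone, only the groups compared, the mean of a gene's probes, the chromosome 11 median subtracted, and each array left out. The fit of WT and I53A arrays alone with the number as a block was chosen after seeing the data.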

Additional observations from a re-analysis of the deposited data

Results flagged for a closer look

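Between the 2 mutant lines, 5 of the genes named differed by the fitted difference between KO and I53A, which is the difference of their changes from WT. Neurod1 stood at -2.20 in KO relative to I53A (log2), being below WT in KO and above WT in I53A, and it was selected for this difference, so the value is a description. Hes6 stood at -1.79 with the same order of groups. Id2 stood at -1.62, with KO below both other groups. Sohlh2 stood at 1.35, with I53A between KO and WT, and this difference no longer passed without any 1 of the 9 arrays. Gata6 stood at 1.85, with 1 of the I53A arrays and 1 of the WT arrays well above background. The Gata6 difference no longer passed without KO 2, KO 3, I53A 1 or I53A 3. In groups of 3 arrays no single array was examined as an outlier.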

How the results depend on the processing

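Of 24 differences of the 8 genes, none changed sign among those called, and 402 of 428 alternative values lay within 1 SD of the value given. Many of these alternatives could not move a difference, so the share does not measure stability. In this balanced design, blocks, fits of the compared groups only, dim probes left out and omitted arrays of the group not compared leave it unchanged. The cause of each change below was not tested. Slide 1 alone, left-out arrays and fits of the compared groups only also had fewer samples. Of the 8 genes, the 1 called in I53A against WT became 0 with 75th percentile scaling, slide 1 alone, the replicate block, only the 2 groups compared, the mean of all probes, and the replicate block within WT and I53A arrays. In KO against WT, 2 became 0 with normexp, slide 1 alone and only the 2 groups, and 1 with 75th percentile scaling, with dim probes (Neurog1 among them) left out and with the replicate block. In KO against I53A, 1 became 2 with 75th percentile scaling, which added Neurog3.

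Of the partner, Notch, neurogenic and other bHLH genes, 5 calls in I53A against WT became 0 with normexp, slide 1 alone and both replicate blocks, 1 with only the 2 groups, 2 with 75th percentile scaling and 3 with the slide block. The 3 in KO against I53A became 1 with normexp and 0 on slide 1. The 9 in KO against WT became 3 with normexp and 1 on slide 1.

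Over all probes, 99 calls in I53A against WT became 46 with normexp, 44 with 75th percentile scaling, 266 with dim probes left out, 2 on slide 1, 25 with the replicate block, 45 with only the 2 groups and 0 with the replicate block within WT and I53A arrays (limma, 3395 at an unadjusted p under 0.05). The 400 in KO against I53A became 132 with normexp, 63 on slide 1, 194 with the replicate block and 213 with only the 2 groups. The 1159 in KO against WT became 326 with normexp and 332 on slide 1. Besides these, the replicate block ended the calls of Mesp2, Eomes and Sox2 in KO against WT (adjusted p = 0.0545, 0.0976 and 0.0691) and of Sohlh2 in KO against I53A (0.0589).

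With 1 array left out, the 8 genes had 0 to 1 calls in I53A against WT, 1 in KO against I53A and 0 to 2 in KO against WT. The list genes had 0 to 4, 2 and 3 to 8, for the same comparisons. Over all probes the lowest counts were 22 in I53A against WT (without WT 1), 181 in KO against I53A (without I53A 1) and 610 in KO against WT (without WT 3). Normexp used the median spot signal, as no mean signal was in the files used. Dim signal limits Neurog1, Olig2 and the other genes near background, for which a change under the bound was not detectable.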
